A study of Mus musculus with 12 samples.

Results

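Expression of 10 antioxidant genes, classical targets of the transcription factor NRF2, was followed in mouse skin. They were Slc7a11, Gclc, Gclm, G6pdx, Gsr, Txnrd1, Srxn1, Nqo1, Hmox1 and Osgin1, picked by name from the 53465 gene identifiers of the count files. All 10 passed the filter on low counts, which kept 15126 genes. The 12 libraries of bulk skin RNA fell into 4 groups of 3. They were irradiated skin of DE2 mice, irradiated skin of WT mice, untreated skin of DE2 mice and untreated skin of WT mice. WT mice carry wild-type Foxp3 (Foxp3-WT). DE2 mice carry an altered form of Foxp3, whose product specifies regulatory T cells. This allele is written Foxp3-E2 in the sample labels, Foxp3-DE2 in the protocol and Foxp3dExon2 in the series title, and was taken here as 1 genotype. Irradiated skin was a shaved flank patch given 6 doses of ultraviolet B light (UVB), at 200 mJ/cm2 by the sample labels and at 100 mJ/cm2 by the protocol, which could not be settled. Untreated skin was a control site, for which shaving is not stated. Age, sex, strain background, the number of animals and the animal behind each library are likewise not stated. A UVB effect below is irradiated over untreated skin, where UVB cannot be told apart from any difference in site or shaving. Libraries may share animals, so the p-values below measure the spread between libraries. By its title, the series asks about autoimmune inflammation of skin exposed to UVB.

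NRF2, encoded by Nfe2l2, is a transcription factor that the adaptor KEAP1 and the ubiquitin ligase scaffold CUL3 mark for degradation. Oxidants and electrophiles modify KEAP1, NRF2 then accumulates, pairs with a small MAF protein and binds antioxidant response elements (AREs) near its target genes. Those targets make glutathione, regenerate reduced thiols and NADPH, and clear quinones and heme. In skin, keratinocytes use this response against ultraviolet light and chemicals.

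Promoter sequence was read from the RefSeq table of GRCm38.p6, which held 9 start sites of 7 members (entries for Hmox1, Gclc and Gsr are missing), each with 250 bases before and 50 bases after the start. The core of the ARE, TGACNNNGC, lay on either strand of 4 of the 9 windows and of 12.4% of all 32851 windows of the same length. A related form of the core, TGAGNNNGC, added after the windows had been read, lay in 3 of the 9 windows and in 17.6% of all windows. The AP-1 motif TGANTCA lay in 2 of the 9 and in 7.81% of all. A match describes the letters and not a bound site. The stretches below show, for 5 members, the match and the 20 bases on each side of it, on the strand of the gene and 5′ to 3′, with the match in capitals.
Slc7a11: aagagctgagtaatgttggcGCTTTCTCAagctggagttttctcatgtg
Gclm: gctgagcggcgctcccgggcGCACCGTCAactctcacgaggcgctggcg
Txnrd1: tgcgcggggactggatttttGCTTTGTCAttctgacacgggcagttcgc
Osgin1: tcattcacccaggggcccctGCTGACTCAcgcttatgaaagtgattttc
Srxn1: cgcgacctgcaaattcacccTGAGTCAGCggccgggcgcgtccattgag
The Slc7a11 stretch is chr3:50443682-50443730, minus strand, with the match at -97 to -89 from the start base, which counts as 0. The Gclm stretch is chr3:122245403-122245451, plus strand, with the match at -134 to -126. The Txnrd1 stretch, chr10:82859094-82859142, plus strand, belongs to the one of its 3 start sites that held a match, at -92 to -84, and lies inside the gene in the GENCODE annotation, in no exon. The Osgin1 stretch, chr8:119437028-119437076, plus strand, has its match at -99 to -91 and also lies inside the annotated gene, outside its exons. The Srxn1 stretch is chr2:152105459-152105507, plus strand, with the match at -45 to -37. Osgin1 and Srxn1 hold the same 9 letters on opposite strands, the G form of the core, and these letters overlap an AP-1 motif in both. Slc7a11 also holds the G form, and Gclm and Txnrd1 the TGAC form. Srxn1 held a further G form match at -158 to -150, a TGAC form match after its start, at 28 to 36, and a further AP-1 motif at -102 to -96. The TGAC match of G6pdx, at -57 to -49, is not printed, since the bases around it overlap an annotated untranslated exon. Nqo1 held no match in its window.

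Total counts were 2809142 to 4062053 in irradiated DE2, 2915273 to 4212640 in irradiated WT, 4205055 to 4741726 in untreated DE2 and 3852586 to 4392982 in untreated WT libraries. Foxp3 had 8 counts in irradiated DE2 libraries and 0 in each other group, too few to check the genotype labels. The label skin was checked on 6 basal keratinocyte markers, all of them counted in every group. The untreated DE2 libraries stood apart in their cell type markers. CPM, the counts of a gene scaled to library size and composition, summed over 9 hair follicle markers to 111 to 602 in untreated DE2, against 6765 to 10480 in irradiated DE2, 14600 to 18200 in irradiated WT and 7761 to 13920 in untreated WT. Summed CPM of 8 melanocyte markers was 16.1 to 25.6 in untreated DE2, with Oca2 and Tyr at 0, and 608 to 1891 in the other 9 libraries. Summed CPM of 10 skeletal muscle markers was 51090 to 109200 in untreated DE2 and 10340 to 46530 in the other 9. Dividing cell markers, 6 in number, summed to 67.2 to 97.0 CPM in untreated DE2 and to 380 to 825 CPM in the other 9. In bulk RNA, fewer cells of a type and less RNA per cell cannot be told apart. Every comparison with untreated DE2 rests on these libraries, and the part of the marker differences in it was not tested beyond the covariate fits given at the end.

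Between irradiated and untreated DE2 skin 5 of the 10 genes passed the threshold, an adjusted p under 0.05 over all genes tested. Slc7a11, G6pdx, Gclc and Gclm were higher and Nqo1 was lower with UVB. Of all genes tested, 27.8% were called in that comparison, 14.4% higher and 13.4% lower. The libraries of both groups did not overlap for 6 of the 10 and for 41.5% of all genes. The median log2 fold change of the 10 genes was 0.52, and that of all genes 0.02. Between irradiated and untreated WT skin 0 of the 10 passed in edgeR, 0 in DESeq2 and 0 in limma voom, with 1 at an unadjusted p under 0.05 in edgeR, where 0.0198% of all genes were called. Groups did not overlap for 2 of the 10, Srxn1 and Gsr, and for 10.1% of all genes. The median of the 10 was 0.04 and that of all genes 0.03. Between irradiated DE2 and irradiated WT skin 1 of the 10 passed, Txnrd1, lower in DE2, where 2.96% of all genes were called, 2.35% higher and 0.608% lower. Groups did not overlap for 5 of the 10 and for 21.3% of all genes. The medians were -0.09 for the 10 and -0.03 for all genes. Between untreated DE2 and untreated WT skin 5 of the 10 passed, Nqo1 higher and Slc7a11, Gclc, G6pdx and Gclm lower in DE2, where 23% of all genes were called, 11.8% higher and 11.2% lower. Groups did not overlap for 5 of the 10 and for 39.8% of all genes. The medians were -0.40 and 0.03. The difference between the UVB effects of the genotypes passed for 4 of the 10, all with a higher effect in DE2, where 10.5% of all genes were called, 5.64% higher and 4.84% lower. These comparisons share groups. The UVB comparison in DE2, the genotype comparison without UVB and the difference of UVB effects all use the untreated DE2 libraries, so their values for a gene are not independent. Differences below are log2 fold changes of the first named group over the other, with their SE.

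**Figure D1:**
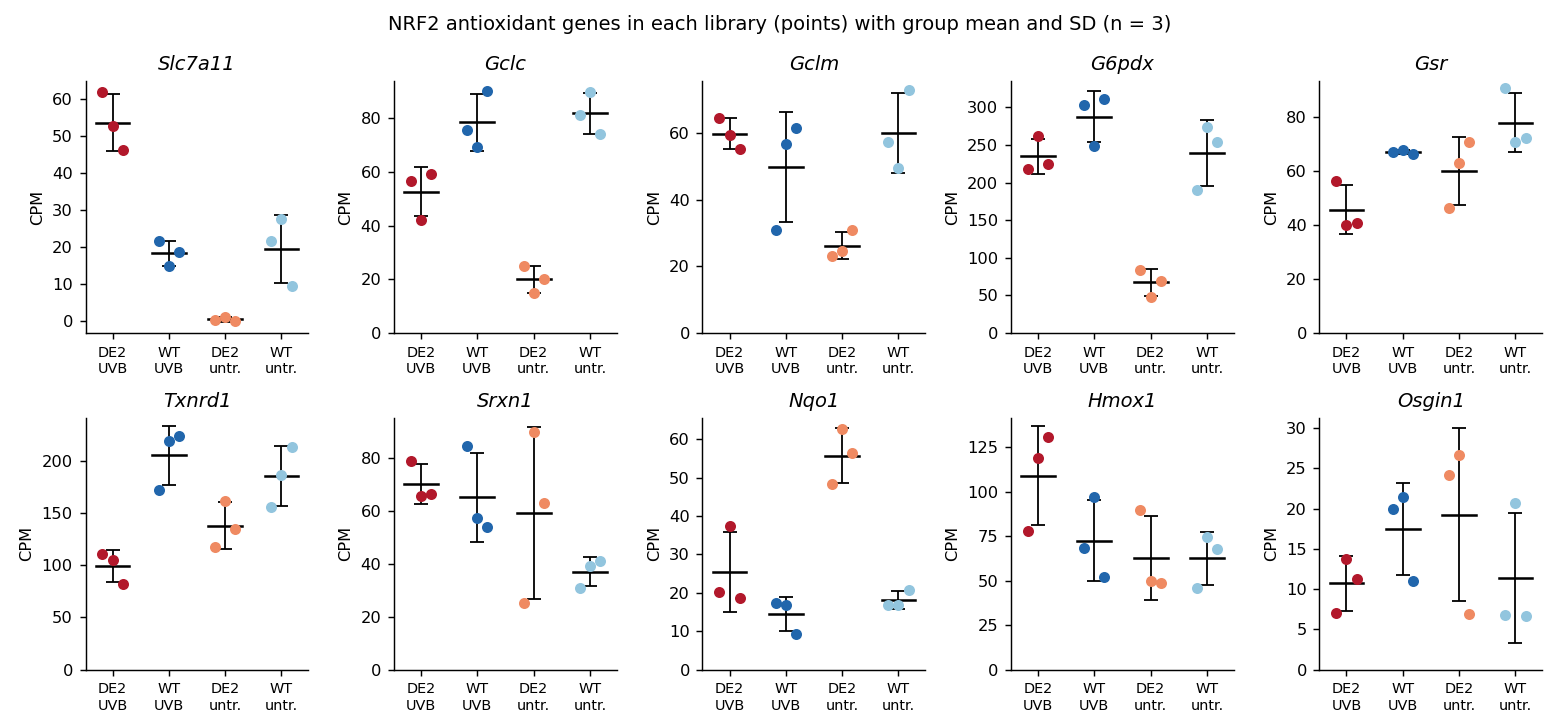
Each panel plots 1 gene, with CPM on the vertical axis, and the 4 groups on the horizontal axis (untr., untreated). Points are libraries, the bar is the group mean and the whiskers are the SD of 3 libraries. The 3 untreated DE2 points lie lowest for Slc7a11, Gclc, Gclm and G6pdx, at no more than 1.13 CPM for Slc7a11, and highest for Nqo1, at 48.2 to 62.5 CPM.

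Slc7a11 encodes the light chain of the cystine importer xCT, which brings in the cysteine used for glutathione (ENSMUSG00000027737, GRCm38, chromosome 3, 49892526 to 50443614, minus strand). Irradiated DE2 libraries had 61.8, 52.8 and 46.3 CPM and irradiated WT libraries 21.6, 14.8 and 18.6 CPM. Untreated DE2 libraries had 0.24, 1.13 and 0 CPM and untreated WT libraries 21.6, 27.5 and 9.38 CPM. Irradiated DE2 was highest with no overlap, untreated DE2 was near 0, and both WT groups overlapped. The untreated DE2 libraries held 1, 4 and 0 counts, so fitted fold changes against them depend on the prior count of the model. The ratio of irradiated to untreated DE2, 572 against 5 counts, was 145 with an exact 95% interval of 61.8 to 449, which covers counting error only. The ratio of untreated DE2 to untreated WT, 5 against 262 counts, was 0.0175 with an interval of 0.00562 to 0.0413. Both ratios are scaled by total counts alone and not also by composition, as the CPM are, so they differ from ratios of the CPM. The fitted log2 fold changes were 6.81 ± 0.64 (SE; edgeR adjusted p = 3.69e-06) and -5.34 ± 0.64 (edgeR adjusted p = 3.78e-05). In irradiated skin the mean of Slc7a11 was 53.6 ± 7.76 CPM for DE2, against 18.3 ± 3.45 CPM for WT (SD, n = 3 each), a log2 fold change of 1.55 ± 0.43 that did not pass (edgeR adjusted p = 0.0683). That value passed with DESeq2 (adjusted p = 0.00665), with limma voom (0.0178), without a filter (0.00279) and with only the irradiated libraries in the fit (0.00975). It did not pass with the hair follicle sum (1.315 ± 0.599, edgeR adjusted p = 0.29) or the muscle sum (1.55 ± 0.42, 0.0535) as a covariate. Leaving out 1 library gave edgeR adjusted p from 0.0398 to 0.209. In WT the UVB difference was -0.09 ± 0.43, and the UVB effect in DE2 exceeded that in WT by 6.89 ± 0.78 on the log2 scale (edgeR adjusted p = 8.55e-05).

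Gclc and Gclm encode the catalytic and the modifier subunit of glutamate-cysteine ligase, the rate-limiting enzyme of glutathione synthesis. Gclc (ENSMUSG00000032350, chromosome 9, 77754535 to 77794485, plus strand) had 56.6, 42.1 and 59.0 CPM in irradiated DE2 and 75.6, 69.4 and 90.0 CPM in irradiated WT. It had 24.9, 15.0 and 20 CPM in untreated DE2 and 81.2, 89.7 and 74.2 CPM in untreated WT. The 3 untreated DE2 libraries were lowest, the 3 irradiated DE2 libraries came next, and the 6 WT libraries were highest, with no overlap between these 3 levels. Gclc was higher with UVB in DE2 by 1.39 ± 0.24 (edgeR adjusted p = 0.000648) and lower in untreated DE2 than in untreated WT by a log2 fold change of -2.03 ± 0.24 (edgeR adjusted p = 2.98e-05). In irradiated skin the log2 fold change of DE2 over WT was -0.58 ± 0.23 and did not pass (edgeR adjusted p = 0.223). The UVB effect in DE2 exceeded that in WT by 1.45 ± 0.32 (edgeR adjusted p = 0.0114), with a UVB difference in WT of -0.06 ± 0.22.

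Gclm (ENSMUSG00000028124, chromosome 3, 122245557 to 122270732, plus strand) had 64.7, 59.5 and 55.4 CPM in irradiated DE2 and 31.0, 56.8 and 61.7 CPM in irradiated WT. It had 23.2, 24.6 and 30.8 CPM in untreated DE2 and 57.5, 49.6 and 73.2 CPM in untreated WT. Untreated DE2 lay below the other 9 libraries, the nearest being irradiated WT replicate 1, at 31.0 CPM. With UVB Gclm was higher in DE2 by 1.19 ± 0.27 (edgeR adjusted p = 0.0046), and at the untreated site it was lower in DE2, at -1.20 ± 0.27 (edgeR adjusted p = 0.00544). The difference of UVB effects was 1.46 ± 0.38 (edgeR adjusted p = 0.0233), and its adjusted p was 0.0509 without irradiated DE2 replicate 2, 0.0639 without untreated DE2 replicate 2 and 0.0534 without untreated WT replicate 3. In irradiated skin Gclm differed between genotypes by 0.27 ± 0.26 (95% interval -0.25 to 0.78) and did not pass (edgeR adjusted p = 0.729). Its exons overlap Gm17494 on the opposite strand, and since the strand setting of the counting is not given, their reads cannot be told apart. Gm17494 held 38, 45, 10 and 61 counts in irradiated DE2, irradiated WT, untreated DE2 and untreated WT, against 636, 547, 293 and 828 for Gclm.

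G6pdx encodes glucose-6-phosphate dehydrogenase, which opens the pentose phosphate pathway and supplies NADPH (ENSMUSG00000031400, chromosome X, 74409483 to 74429194, minus strand). Irradiated DE2 libraries had 218, 261 and 225 CPM and irradiated WT libraries 303, 249 and 311 CPM. Untreated DE2 libraries had 84.1, 48.1 and 69.7 CPM and untreated WT libraries 190, 275 and 254 CPM. Untreated DE2 was lower than each of the other 9 libraries, whose 3 groups overlapped. G6pdx was higher with UVB in DE2 by 1.80 ± 0.22 (edgeR adjusted p = 4.48e-05), and lower in untreated DE2 than in untreated WT, at -1.83 ± 0.22 (edgeR adjusted p = 4.52e-05). The UVB difference in WT was 0.26 ± 0.21, and the effect in DE2 exceeded it by 1.54 ± 0.31 (edgeR adjusted p = 0.00609). Ikbkg, which overlaps G6pdx on the opposite strand, held 360, 321, 337 and 470 counts in irradiated DE2, irradiated WT, untreated DE2 and untreated WT, against 2498, 3139, 766 and 3266 for G6pdx. The paralog G6pd2 held 3, 1, 0 and 0 counts.

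Gsr encodes glutathione reductase, which returns oxidised glutathione to its reduced form with NADPH (ENSMUSG00000031584, chromosome 8, 33652523 to 33698163, plus strand). Its mean was 45.7 ± 9.21 CPM with UVB in DE2, 67.0 ± 0.81 with UVB in WT, 60.0 ± 12.5 without UVB in DE2 and 77.9 ± 11.0 without UVB in WT (SD, n = 3 each). The 3 irradiated DE2 libraries, at 39.9 to 56.3 CPM, lay below the 3 irradiated WT libraries, at 66.3 to 67.9 CPM, but the log2 fold change of -0.55 ± 0.22 did not pass (edgeR adjusted p = 0.231). No comparison called Gsr with composition factors. With total counts it was lower in untreated DE2 than in untreated WT (-0.81, edgeR adjusted p = 0.0124).

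Txnrd1 encodes the cytosolic thioredoxin reductase, a selenoprotein that keeps thioredoxin reduced (ENSMUSG00000020250, chromosome 10, 82833951 to 82897712, plus strand). It was the member that passed between genotypes in irradiated skin. Irradiated DE2 libraries had 111, 105 and 81.6 CPM and irradiated WT libraries 172, 219 and 224 CPM. Untreated DE2 libraries had 117, 162 and 134 CPM and untreated WT libraries 156, 187 and 213 CPM. Irradiated DE2 was the lowest group, with every library below all 9 others. The log2 fold change of irradiated DE2 over irradiated WT was -1.05 ± 0.20 (edgeR adjusted p = 0.0112). Without irradiated DE2 replicate 2 or 3 it was -1.09 and -0.92 and did not pass (edgeR adjusted p = 0.0524 and 0.0563). The UVB difference was -0.47 ± 0.20 in DE2 (edgeR adjusted p = 0.0932) and 0.15 ± 0.20 in WT, and the difference of these effects did not pass (-0.62 ± 0.28, edgeR adjusted p = 0.173). The value in DE2 passed without untreated DE2 replicate 1 (-0.58, edgeR adjusted p = 0.0468) and without that library and irradiated WT replicate 2 (-0.58, 0.0394). Between untreated DE2 and untreated WT the difference was -0.43 ± 0.20 (edgeR adjusted p = 0.133), and it passed with total counts (-0.85, 0.00712). In the same libraries summed CPM of 8 neutrophil markers was 4141 to 4443 in irradiated DE2 and 183 to 381 in irradiated WT, where Ly6g was at 0. Summed CPM of 6 basal keratinocyte markers was 15930 to 21100 in irradiated DE2 and 3479 to 4315 in irradiated WT. Gene by gene, 3 of these 6 were called higher and 1 lower in irradiated DE2, beside 2.96% of all genes called. The hair follicle markers were at 6765 to 10480 and 14600 to 18200 CPM in the same order. Their part in the Txnrd1 difference was not tested, other than with the hair follicle sum as a covariate, where it was -1.14 ± 0.22 (edgeR adjusted p = 0.0136).

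Srxn1 encodes sulfiredoxin, which repairs overoxidised peroxiredoxins (ENSMUSG00000032802, chromosome 2, 152105516 to 152111376, plus strand). With UVB it had 78.9, 65.6 and 66.3 CPM in DE2 and 84.6, 57.3 and 53.8 CPM in WT. Without UVB it had 25.1, 90.0 and 63.1 CPM in DE2 and 30.9, 39.1 and 41.3 CPM in WT. The 3 irradiated WT libraries lay above the 3 untreated WT libraries, a separation that held for 10.1% of all genes, with a log2 fold change of 0.81 ± 0.35 that did not pass (unadjusted p = 0.033, edgeR adjusted p = 1.0). Untreated DE2 spanned the values of all other groups. Without its replicate 1, at 25.1 CPM, untreated DE2 exceeded untreated WT by 1.05 ± 0.25 (edgeR adjusted p = 0.00748), against 0.68 ± 0.35 with it (edgeR adjusted p = 0.179). That replicate also had the highest hair follicle sum of its group, 602 CPM against 111 and 148 CPM, and the lowest muscle sum, 51090 CPM against 96230 and 109200 CPM. The part of these sums in the Srxn1 values was not tested beyond the covariate fits given at the end.

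Nqo1 encodes NAD(P)H quinone dehydrogenase 1, which reduces quinones and is a standard readout of NRF2 activity (ENSMUSG00000003849, chromosome 8, 107388225 to 107403206, minus strand). Irradiated DE2 libraries had 20.1, 37.5 and 18.6 CPM and irradiated WT libraries 17.3, 17.0 and 9.43 CPM. Untreated DE2 libraries had 48.2, 62.5 and 56.4 CPM and untreated WT libraries 16.8, 16.8 and 20.8 CPM. Untreated DE2 was highest, above all 9 other libraries, the reverse of its place for Slc7a11, Gclc, Gclm and G6pdx. Nqo1 was lower with UVB in DE2, at -1.12 ± 0.32 (edgeR adjusted p = 0.0169), and higher in untreated DE2 than in untreated WT by 1.62 ± 0.32 (edgeR adjusted p = 0.00282). The UVB call was lost without irradiated DE2 replicate 1 or 3 (edgeR adjusted p = 0.0869 and 0.073), without untreated DE2 replicate 2 (0.0572), and with total counts in place of composition factors (0.0585). In irradiated skin the 3 DE2 libraries lay above the 3 WT libraries, by 0.81 ± 0.33, and did not pass (edgeR adjusted p = 0.246). The difference of UVB effects did not pass either (-0.81 ± 0.46, edgeR adjusted p = 0.283).

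Hmox1 encodes heme oxygenase 1, which breaks down heme (ENSMUSG00000005413, chromosome 8, 75093621 to 75100589, plus strand). With UVB it had 77.8, 119 and 131 CPM in DE2 and 68.2, 97.2 and 52.0 CPM in WT. Without UVB it had 89.7, 49.8 and 48.6 CPM in DE2 and 45.7, 74.3 and 67.5 CPM in WT. Irradiated DE2 had the highest mean, lay above untreated WT and overlapped irradiated WT and untreated DE2. Its UVB difference in DE2 was 0.79 ± 0.30 and did not pass (edgeR adjusted p = 0.0658). It passed without irradiated DE2 replicate 1 (1.03, edgeR adjusted p = 0.0404), irradiated WT replicate 3 (0.84, 0.0473) or untreated DE2 replicate 1 (1.14, 0.0119), without a filter (0.79, 0.0249), with total counts (0.99, 0.0362), and without both libraries of unusual muscle share, irradiated WT replicate 2 and untreated DE2 replicate 1 (1.14, 0.00542). Macrophages of tissues that recycle red cells are a known source of Hmox1. Summed CPM of 8 macrophage markers was 617 to 883 in irradiated DE2, 315 to 572 in irradiated WT, 312 to 671 in untreated DE2 and 152 to 442 in untreated WT, and its part in the Hmox1 values was not tested.

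Osgin1, an oxidative stress induced growth inhibitor gene (ENSMUSG00000074063, chromosome 8, 119434124 to 119446256, plus strand), had wide spreads within groups. Its CPM was 7.07 to 13.8 in irradiated DE2, 11.0 to 21.4 in irradiated WT, 6.95 to 26.6 in untreated DE2 and 6.67 to 20.7 in untreated WT. The groups overlapped throughout and no comparison called it, with SEs of 0.55 on the log2 scale in each pair of groups.

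**Figure D2:**
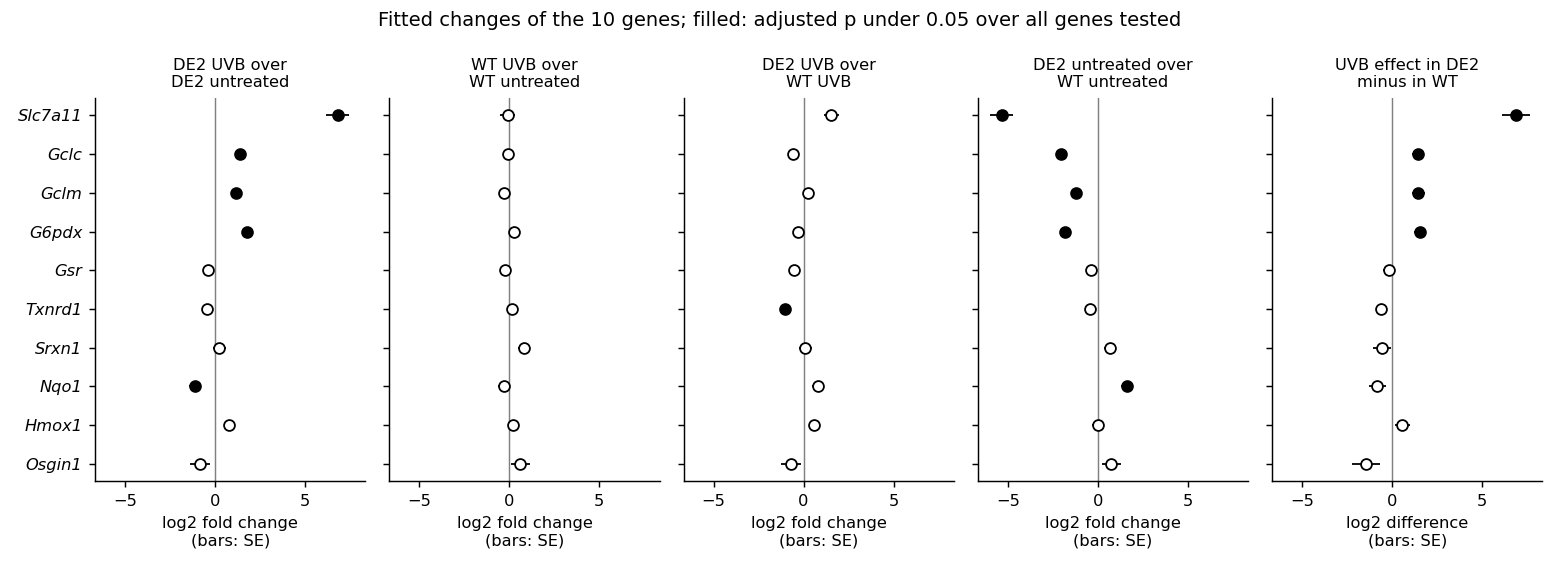
Points are fitted log2 fold changes of the 10 genes (log2 differences in the last panel) on the horizontal axis and bars are their SE, with genes in rows. Filled points passed an adjusted p under 0.05 over all 15126 genes tested. The 4 filled points right of 0 in the first panel are Slc7a11, Gclc, Gclm and G6pdx, the same genes lie left of 0 in the fourth panel, which shares the untreated DE2 libraries, and the second panel has no filled point.

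Levels were compared between genes per kilobase of exon. G6pdx was the highest of the 10 in irradiated DE2, irradiated WT and untreated WT, at 76.2, 93.3 and 77.7 CPM per kb, and came after Nqo1 and Hmox1 in untreated DE2, at 21.9 CPM per kb. Hmox1 was the second in all 4 groups, at 62.2, 41.4, 35.8 and 35.7 CPM per kb in irradiated DE2, irradiated WT, untreated DE2 and untreated WT. Nqo1 led in untreated DE2, at 35.9 CPM per kb, level with Hmox1, against 16.4, 9.37 and 11.7 CPM per kb in irradiated DE2, irradiated WT and untreated WT. Slc7a11, whose exons are the longest of the 10 at 13922 bases, was lowest in each group, at 3.85, 1.32, 0.0329 and 1.4 CPM per kb. The exon length counts every annotated transcript, so a gene with long exons that skin does not use is placed too low.

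Of NRF2 and its regulators, 13 genes on a list chosen with earlier results of these data known, Nfe2l2 itself passed in no comparison in edgeR. Its CPM was 131, 162 and 129 in irradiated DE2, 107, 86.6 and 94.6 in irradiated WT, 112, 68.5 and 107 in untreated DE2 and 95.8, 89.9 and 82.5 in untreated WT. The irradiated DE2 libraries were the 3 highest of the 12. The log2 fold change was 0.55 ± 0.20 over untreated DE2 (edgeR adjusted p = 0.0562), and 0.55 ± 0.20 over irradiated WT (edgeR adjusted p = 0.196). For UVB in DE2 it passed with DESeq2 (0.56, adjusted p = 0.0465), limma voom (0.58, 0.0476) and total counts (0.78, 0.0246). It also passed in edgeR without irradiated WT replicate 3 (0.60, 0.0468) or untreated DE2 replicate 1 (0.68, 0.0295), and without irradiated WT replicate 2 and untreated DE2 replicate 1 together (0.68, 0.024). With the hair follicle sum as a covariate it was -0.04 ± 0.66, and with the muscle sum 0.30 ± 0.32 (edgeR adjusted p = 0.999 and 0.74). It did not pass without a filter (0.55, 0.154). Without irradiated DE2 replicate 2 it was 0.43 (0.203), and without untreated DE2 replicate 2 0.34 (0.254). NRF2 is mainly set by protein stability, which RNA does not measure. Between irradiated and untreated DE2, 5 of the 13 passed, a share of 38.5% against 27.8% of all genes. Nfe2l3, which encodes a relative of NRF2, was higher by 3.25 ± 0.39. Lower were Keap1 (-0.91 ± 0.24), Cul3 (-1.05 ± 0.22), the transcription factor gene Nfe2l1 (-1.08 ± 0.26) and Sqstm1, whose product p62 binds KEAP1 (-1.44 ± 0.32). Without UVB 6 of the 13 passed between DE2 and WT, a share of 46.2% against 23% of all genes. Nfe2l3 was lower, at -3.66 ± 0.39, as was the repressor gene Bach2, at -2.13 ± 0.49, while Nfe2l1, Sqstm1, Cul3 and Keap1 were higher, by 1.54, 1.57, 0.81 and 0.86. Between irradiated DE2 and irradiated WT 0 of the 13 passed in edgeR, 4 had an unadjusted p under 0.05, and DESeq2 called 1, the repressor gene Bach1 (edgeR 1.03 ± 0.32, adjusted p = 0.103), while limma voom called 0. Between irradiated and untreated WT 0 passed in edgeR, DESeq2 or limma voom, with 2 at an unadjusted p under 0.05.

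Lists of related genes, not all of them antioxidant, held 109 genes in all, of which 103 were tested. They include the NRF2 regulators above, targets of a stress factor and NADPH oxidase genes. Between irradiated and untreated DE2, 47 of the 103 passed, 25 higher and 22 lower, a share of 45.6% against 27.8% of all genes. Other NRF2 targets split, with 8 of 31 higher and 7 lower. Txn1, which encodes thioredoxin, was higher, at 639 ± 108 CPM in irradiated DE2 and 165 ± 25.9 CPM in untreated DE2 (SD, n = 3 each). The glutathione transferase gene Gsta4 was higher by 2.95 ± 0.48, while Gstm1, another glutathione transferase gene, was lower at -1.59 ± 0.31. Genes that handle glutathione were higher in 5 of 14 and lower in 2. Ggt1, whose product splits extracellular glutathione, had 218 counts in irradiated and 3 in untreated DE2 libraries. Glrx, which encodes glutaredoxin, was higher by 2.74 ± 0.28, and Slc3a2, the heavy chain partner of xCT, by 1.19 ± 0.19. The pentose phosphate enzymes beyond G6pdx were higher in 3 of 7 and lower in 0, with Tkt at 0.94 ± 0.22, Pgd at 0.94 ± 0.25 and Pgls at 0.69 ± 0.20. All 4 superoxide dismutase and catalase genes were lower, led by Cat at -1.70 ± 0.26 and Sod1 at -1.29 ± 0.26, and the other 2, Sod2 and Sod3, were at -0.68 ± 0.22 and -0.77 ± 0.25. Targets of the amino acid stress factor ATF4, which also drives Slc7a11, were higher in 5 of 14 and lower in 0, with the transporter gene Slc7a5 at 3.73 ± 0.49. The iron exporter gene Slc40a1 was higher by 2.56 ± 0.45 among 2 higher and 1 lower of 12 heme and iron genes. In the thioredoxin and peroxiredoxin list 4 of 13 were higher and 4 lower, and among NADPH oxidase genes 2 of 8 were higher, Duox1 by 3.02 ± 0.52 and Cyba by 1.29 ± 0.30. In the same libraries the hair follicle markers were higher in 9 of 9 tested and the skeletal muscle markers lower in 10 of 10. With the hair follicle sum as a covariate edgeR called 0 of the 103, and 0 of all genes. With the muscle sum it called 9, 8 higher and 1 lower, and 4.63% of all genes.

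Between irradiated and untreated WT 0 of the 103 related genes passed in edgeR and 0 in limma voom, 9 had an unadjusted p under 0.05, and DESeq2 called 1. That gene, Glrx, was at 114, 98.6 and 52.6 CPM in irradiated WT, against 23.3, 21.7 and 36.9 CPM in untreated WT, a log2 fold change of 1.70 ± 0.28 (edgeR adjusted p = 0.067).

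Between irradiated DE2 and irradiated WT, 13 of the 103 related genes passed, all higher in DE2, a share of 12.6% against 2.96% of all genes. Leaving out 1 library gave 4 to 13. The count was 8, 4 and 7 without irradiated DE2 replicates 1, 2 and 3, all of them higher. Without irradiated WT replicates 1 and 3 it was 7 and 5, also all higher. The share of all genes called was lower in the same fits, 1.34%, 0.828% and 1.7% without those DE2 replicates and 1.35% and 1.08% without those WT replicates. DESeq2 called 15 higher and 1 lower. The call of Txnrd1 among the 10 members was in the other direction. Txn1, whose protein Txnrd1 serves, was at 517, 721 and 679 CPM in DE2 against 288, 245 and 244 CPM in WT, a log2 fold change of 1.30 ± 0.19 (edgeR adjusted p = 0.00211). Gsta4 was at 207, 232 and 129 CPM in DE2 against 22.5, 10.3 and 12.5 CPM in WT, higher by 3.65 ± 0.50. Glrx was higher by 1.84 ± 0.27, the glutathione peroxidase gene Gpx1 by 1.45 ± 0.20 and Ggct, of the glutathione cycle, by 1.01 ± 0.20. Akr1b8, an aldo-keto reductase gene, was higher by 2.14 ± 0.39, the peroxiredoxin genes Prdx6 and Prdx5 by 0.88 ± 0.18 and 0.84 ± 0.18, and Atf3, a stress transcription factor gene, by 2.87 ± 0.69. Duox1, which encodes a hydrogen peroxide producing oxidase, was higher by 2.74 ± 0.51, and Cyba by 1.38 ± 0.30. Of the pentose phosphate list 0 of 7 and of the heme and iron list 0 of 12 passed in edgeR, DESeq2 and limma voom, with 2 of each at an unadjusted p under 0.05. The superoxide dismutase and catalase list had 0 of 4 in the same tools and 1 at an unadjusted p under 0.05. Neutrophil markers were higher in 4 of 6 tested and basal keratinocyte markers higher in 3 and lower in 1 of 6 in this comparison, and the part of these lists in the counts was not tested. The hair follicle and muscle covariates left 10 and 16 of the 103, all higher. Over the alternatives other than leaving out 1 library, DESeq2 and the covariates among them, 309 to 1031 of all genes were called, against 448 in the main fit.

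Between untreated DE2 and untreated WT, 37 of the 103 passed, 27 higher and 10 lower, a share of 35.9% against 23% of all genes. With total counts in place of composition factors the split was 13 higher and 20 lower, so the balance of directions turned with the scaling. The hair follicle covariate left 0 in edgeR, and the muscle covariate 4, all lower, beside 2.86% of all genes. All 4 superoxide dismutase and catalase genes were higher, Cat by 1.28 ± 0.25 and Sod1 by 1.10 ± 0.26. Of the thioredoxin and peroxiredoxin list 6 of 13 were higher and 0 lower, among them Prdx3 at 1.64 ± 0.34. Lower in DE2 were Slc3a2, at -1.45 ± 0.19, Slc7a5, at -4.02 ± 0.49, Slc40a1, at -2.73 ± 0.45, and Ggt1, with 3 against 465 counts. Of the ATF4 targets 4 of 14 were lower and 0 higher. Tkt and Pgls were lower, at -0.80 ± 0.22 and -0.69 ± 0.20, and H6pd, whose product makes NADPH inside the endoplasmic reticulum, was higher by 1.162 ± 0.353. All 9 tested hair follicle and all 6 dividing cell markers were lower and 8 of 10 muscle markers higher in the same comparison.

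**Figure D3:**
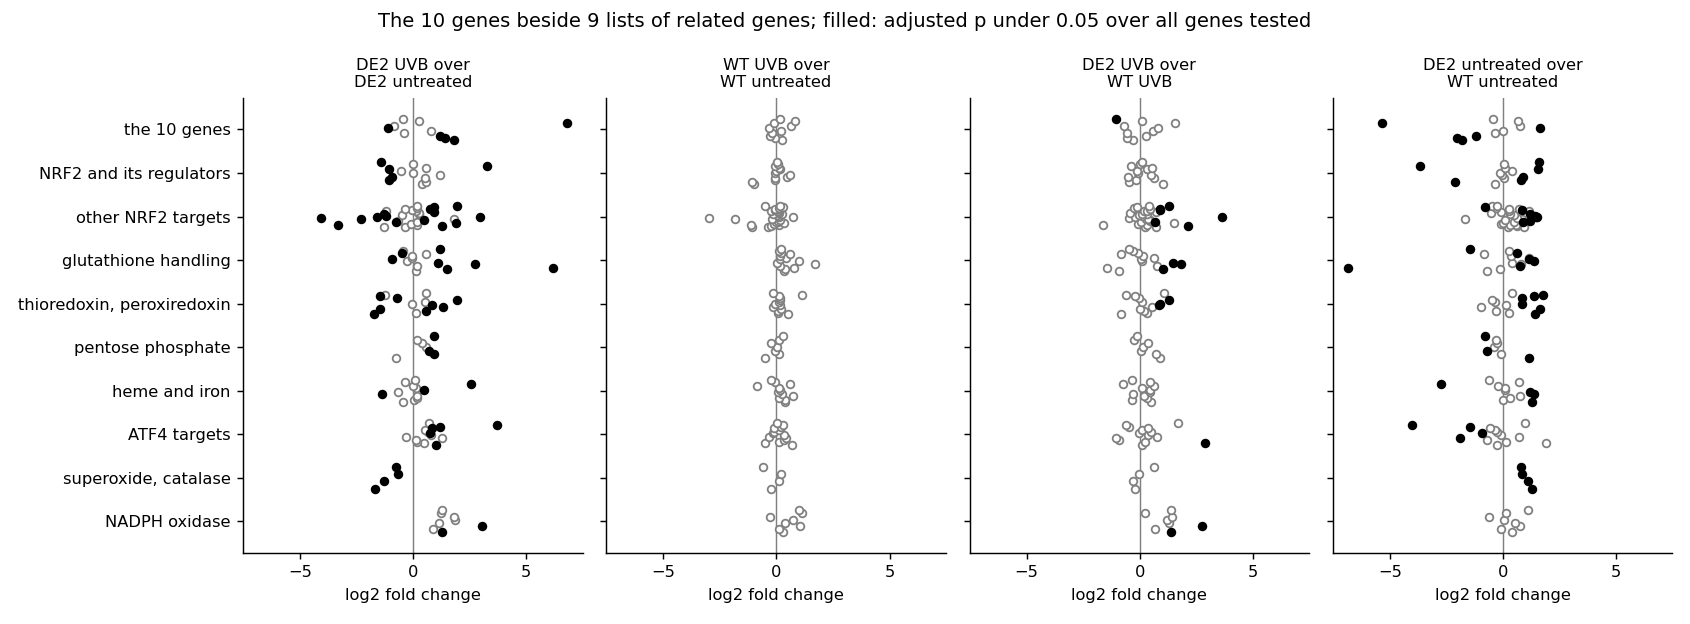
Each point is a gene, with its fitted log2 fold change on the horizontal axis and its list in the row. Filled points passed an adjusted p under 0.05 over all genes tested. The third panel, irradiated DE2 over irradiated WT, has its filled points right of 0 for 13 related genes and left of 0 for 1 of the 10, Txnrd1, and the second panel, WT with over without UVB, has none.

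Between the UVB effects of the genotypes, 19 of the 103 related genes passed, 8 with a higher and 11 with a lower effect in DE2, a share of 18.4% against 10.5% of all genes. With total counts the split was 16 higher and 3 lower, so this balance too turned with the scaling. The count was 30 with DESeq2, 13 with limma voom, 4 with the muscle covariate, 0 with the hair follicle covariate, 28 without irradiated WT replicate 3, 32 without untreated DE2 replicate 1 and 8 to 11 without any 1 of the other 10 libraries. All genes called, 1585 in the main fit, moved as well, to between 878 and 2585 when 1 library was left out. Over the other alternatives they ran from 0 with the hair follicle covariate to 2438 without a filter. The difference was 1.789 ± 0.267 for Txn1, 3.42 ± 0.63 for Slc7a5, 0.99 ± 0.27 for Slc3a2 and 3.30 ± 0.51 for Nfe2l3. It was -1.37 ± 0.33 for Keap1, -1.48 ± 0.36 for Cat, -1.38 ± 0.37 for Sod1 and -2.25 ± 0.41 for Msra, which encodes a methionine sulfoxide reductase. Hair follicle markers were higher in 8 of 9 tested in the same contrast.

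Pearson's r on log2 CPM is given as a description of libraries that share group, depth and tissue makeup. No order over the 12 libraries was shared by all members. Slc7a11, Gclc, Gclm and G6pdx rose and fell together, with r from 0.742 (Gclc and Gclm) to 0.936 (Gclc and G6pdx) over 12. Over the 9 without untreated DE2, r between these genes ran from -0.658 (Gclc and Slc7a11) to 0.249 (Gclc and G6pdx). Gclc and G6pdx had r = 0.936 over 12 libraries and 0.249 over the 9 without untreated DE2. Gclc and Slc7a11 had r = 0.78 over 12 and -0.658 over 9. Gclc and Nqo1 ran opposite in both, at -0.951 and -0.837. Txnrd1 and Gsr had 0.749 over 12 and 0.771 over 9, and Slc7a11 and Txnrd1 had -0.0486 over 12 and -0.867 over 9.

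For each of the 10, the 3 genes most alike over the 12 libraries were looked up among all tested genes, with r over 12 and then over the 9 libraries. Gclc was most like the homeobox genes Dlx3 (0.991 and 0.96) and Msx2 (0.985 and 0.92) and Gm11571 (0.984 and 0.919), and Msx2 is on the hair follicle marker list. Slc7a11 was most like Pi15 (0.98 and 0.825), Skil (0.978 and 0.845) and Spire2 (0.973 and 0.778). G6pdx was most like S100a7a (0.988 and 0.812), Lrrc15 (0.987 and 0.81) and Gm7138 (0.987 and 0.748). Gclm was most like the mitotic kinesin gene Kif4 (0.944 and 0.847), Rnf20 (0.907 and 0.714) and Zdhhc21 (0.907 and 0.717). Nqo1 was most like Ngly1 (0.953 and 0.825), Bag1 (0.952 and 0.813) and Klhdc1 (0.947 and 0.851). These 5 are the genes called against untreated DE2, and each r fell when those 3 libraries were left out. The genes were picked by their r over all 12 libraries, which by itself favours a lower r over the 9. Txnrd1 was most like Pdzrn3 (0.903 and 0.955), Cdc14a (0.891 and 0.957) and Nelfcd (0.88 and 0.914). Gsr was most like Nemf (0.885 and 0.936), Zfp638 (0.862 and 0.886) and Nup153 (0.85 and 0.906). For these 2 members each r was larger over the 9 libraries. Hmox1 was most like Sbno2 (0.882 and 0.853), Rn7sk (0.875 and 0.907) and Hars (0.863 and 0.853), Srxn1 like Gm43162 (0.911 and 0.904), Armt1 (0.899 and 0.801) and Tmem104 (0.858 and 0.7), and Osgin1 like Zfp446 (0.852 and 0.793), Kyat3 (0.841 and 0.788) and Scara5 (0.826 and 0.887).

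**Figure D4:**
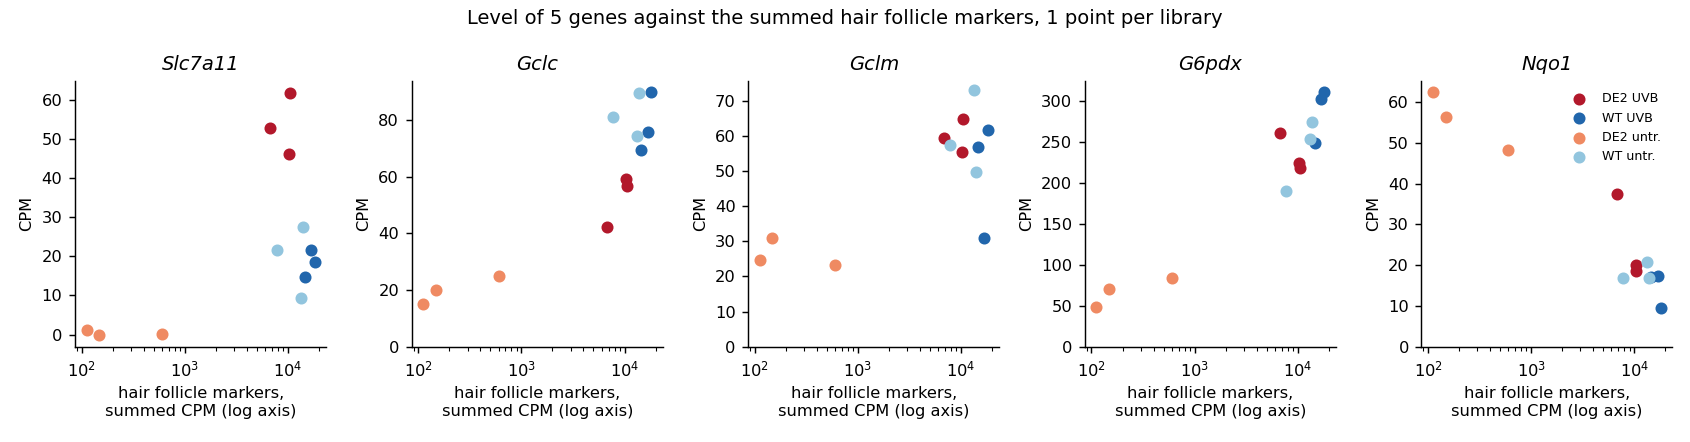
Each panel plots 1 gene, with its CPM on the vertical axis against the summed CPM of 9 hair follicle markers on a horizontal log axis, and 1 point per library coloured by group. The 3 untreated DE2 libraries sit alone at 111 to 602 CPM of hair follicle markers, where Slc7a11, Gclc, Gclm and G6pdx are lowest and Nqo1 is highest.

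The hair follicle sum separates untreated DE2 from the other 9 libraries, so at the untreated site genotype and hair follicle markers cannot be told apart. With the log2 of that sum as a covariate, edgeR called 0 of the 10 genes and 0 of all 15126 in the UVB comparison in DE2, in the genotype comparison without UVB and in the difference of UVB effects. The SE of the UVB effect in DE2 grew with it, to 2.39 for Slc7a11 and 0.69 for Gclc. In the UVB comparison in DE2 Slc7a11 was then at 8.28, Gclm at 1.55, G6pdx at 0.42, Gclc at -0.02 and Nqo1 at 0.03. Among the 9 libraries with more alike hair follicle sums, Gclc was lower in the 3 irradiated DE2 libraries, at 42.1 to 59.0 CPM, than in the 6 WT libraries, at 69.4 to 90.0 CPM, and these 3 libraries had hair follicle sums of 6765 to 10480 CPM against 7761 to 18200 CPM in WT.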

How the data were processed

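Bulk RNA of mouse skin was sequenced in 12 libraries. The authors deposited whole-number read counts per Ensembl gene, 1 file per library with 53465 identifiers and no summary rows. The submitters' processing notes name the build GRCm38 and Trimmomatic 0.39, Picard 3.1.0, SAMtools 1.16 and HTSeq 2.0.2. Aligner, annotation release, strand setting and duplicate handling are not given there. Counts of genes that overlap on opposite strands are therefore uncertain.

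GENCODE vM21 gave symbols for 53274 identifiers and the GRCm38 positions (Krt85, a listed hair marker, had no match). Counts were scaled with TMM factors and fitted in R 4.3.3 with edgeR 4.0.16 (quasi-likelihood, robust, 1 mean per group over 12 libraries, 8 residual degrees of freedom). The filter filterByExpr left 15126 genes. The common dispersion was 0.128 (biological coefficient of variation, 35.8%). P-values were adjusted by Benjamini-Hochberg within each comparison over every tested gene, with a threshold of 0.05. The SE of a log2 fold change was worked back from the test statistic. CPM use the scaled library size and are given ± SD of 3, and log2 CPM used a prior count of 1. Total counts of 2809142 to 4741726 set the precision. Count ratios are scaled by total counts without TMM factors and carry exact 95% intervals for counting error only.

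The members and lists were chosen with earlier results of these data known. The text names all members, the NRF2 regulators, up to 4 genes of smallest p per other list and comparison, and for each member the 3 genes of highest r, where mean log2 CPM was 1 or more. Genes named in a comparison where they were not among those 4 repeat a gene named elsewhere. The motif TGAGNNNGC was added after the promoters were read. Replicate numbers follow accession order and pair nothing. Alternatives were RLE scaling, total counts, no filter, a stricter one (100 counts in all and 1 CPM in 3 libraries), DESeq2 1.42.0, limma 3.58.1 with voom, marker sums as covariates, only the libraries compared, and leaving out libraries. Protein sequences were not used here.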

Additional observations from a re-analysis of the deposited data

Results flagged for a closer look

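The UVB effect differed between the genotypes for 4 of the 10 genes, by a test of the difference itself, which called 10.5% of all genes. In these effects UVB cannot be told apart from any difference in site or shaving between irradiated and untreated skin. The log2 difference, the effect in DE2 minus that in WT, was 6.89 ± 0.78 for Slc7a11 (edgeR adjusted p = 8.55e-05), 1.54 ± 0.31 for G6pdx (0.00609), 1.46 ± 0.38 for Gclm (0.0233) and 1.45 ± 0.32 for Gclc (0.0114). For each, the fitted UVB effect was 1.19 or more in DE2 and -0.27 to 0.26 in WT, and the untreated DE2 libraries were the 3 lowest of the 12. Those libraries also had the lowest hair follicle, melanocyte and dividing cell marker sums and the highest muscle sums, and the part of these in the difference was not tested beyond the covariate fits. Between irradiated DE2 and irradiated WT these 4 genes did not pass in the main edgeR fit. The log2 fold changes there were 1.55 for Slc7a11, which passed under other settings given below, 0.27 for Gclm, -0.29 for G6pdx and -0.58 for Gclc.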

How the results depend on the processing

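No paired analysis was possible because the labels give no replicate numbers or animals. Over all alternatives 1090 member fold changes were computed, of which 1005 kept their direction and their side of the threshold, 29 lost the call, 19 gained it and 37 turned sign. Leaving out each library in turn called 4 to 7 of the 10 genes for UVB in DE2, 0 to 0 for UVB in WT, 0 to 2 for DE2 over WT with UVB, 5 to 6 without UVB and 3 to 4 for the difference of UVB effects. In the same order, all genes called ran from 2979 to 4622, 0 to 15, 130 to 616, 2108 to 3881 and 878 to 2585. DE2 over WT with UVB had 2 calls in place of 1 without a filter, with DESeq2, with limma voom and with only the libraries compared, since Slc7a11 joined, and also without untreated DE2 replicate 2 or 3 or untreated WT replicate 3 (edgeR adjusted p of Slc7a11 = 0.0398, 0.0445 and 0.0495). Without a filter all genes called in that comparison rose too, from 448 of 15126 tested to 1031 of 28874. The hair follicle covariate left 0 calls for UVB in DE2, DE2 over WT without UVB and the difference of effects, and the muscle covariate 2, 3 and 1, where calls over all genes were 0 and then 700, 433 and 287, against 4202, 3477 and 1585 without a covariate. The hair follicle sum nearly coincides with the untreated DE2 libraries, at 111 to 602 CPM against 6765 CPM or more elsewhere. The muscle sum does so less, with 51090 CPM in untreated DE2 replicate 1 and 46530 CPM in irradiated WT replicate 2. Under the hair follicle covariate signs turned for Nqo1 (0.0296), Hmox1 (-0.923), Gclc (-0.0186), Txnrd1 (0.0957) and Gsr (0.715) with UVB in DE2, Slc7a11 with UVB in WT (0.065), Srxn1 between genotypes with UVB (-0.349) and without (-2.57), and for the difference of effects Nqo1 (0.232), Hmox1 (-0.986), Srxn1 (2.22) and Gsr (0.816). Hmox1 between untreated genotypes, 0.01 as reported, was -0.00491 with RLE scaling, -0.352 with total counts, -0.00549 with DESeq2, -0.00874 with limma voom, -0.173 with the muscle covariate, -0.0587 with only the libraries compared, -0.342 without irradiated WT replicate 2 and untreated DE2 replicate 1, the libraries of unusual muscle share, and -0.343 to 0.192 leaving out 1 library. The Gsr difference of effects was 0.197 with total counts and 0.0505 with the muscle covariate, under which that of Srxn1 was 0.0547. Without the 2 libraries of unusual muscle share Srxn1 with UVB in DE2 was -0.126, and with UVB in WT Hmox1 was -0.0567, Gclc 0.0176 and Slc7a11 0.0485. Slc7a11 with UVB in WT was 0.0447 with limma voom. Leaving out 1 library gave -0.441 to 0.22 for Slc7a11, -0.058 to 0.388 for Hmox1 and -0.19 to 0.0172 for Gclc with UVB in WT, -0.125 to 0.656 for Srxn1 with UVB in DE2 and -0.0153 to 0.337 for Srxn1 between irradiated genotypes. Of the values that turned sign, those called as reported were Nqo1 and Gclc with UVB in DE2. Total counts moved the median of all genes to 0.26 for UVB in DE2 and -0.371 for DE2 over WT without UVB. The calls then split 2712 higher to 1368 lower (2180 to 2022 with composition factors), 788 to 3011 (1782 to 1695) and, for the difference of effects, 1220 to 368 (853 to 732). The causes of these changes were not tested. All genes called for UVB in WT, 3, became 141 without a filter and 22 with DESeq2. With 3 libraries a group and 5 counts of Slc7a11 in untreated DE2, its fold against that group is imprecise.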
